A study of Mus musculus with 4 samples.

Results

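The genes described here come from 2 adjacent imprinted domains on distal mouse chromosome 7, the Igf2 and H19 domain and the Kcnq1 and Cdkn1c domain. They are a selection and not all genes of these domains. Members were all probe sets of the array whose only annotated gene symbol was Igf2, H19, Ascl2, Cdkn1c, Phlda2, Slc22a18, Kcnq1, Cd81, Tssc4 or Nap1l4. That rule named 10 genes and found 13 probe sets of 9 genes, out of 45101 probe sets and 18193 genes in all. The only probe set annotated with H19 also carries the symbol Mir675, so H19 has no value among these genes.

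Expression was measured on 4 Affymetrix arrays in the mouse embryonic stem cell line E14. Npac RNAi cells (2 arrays) received a short hairpin RNA against Npac with Lipofectamine 2000, and control RNAi cells (2 arrays) are described in the labels only as a control knockdown. Both groups were grown in serum with LIF, a cytokine that holds such cells undifferentiated, and both were harvested after 3 days of selection with puromycin. The hairpin sequences, the content of the control construct and whether the replicates came from separate cultures are not stated, so p-values measure the spread between these arrays, which may be technical. The targeted gene now carries the symbol Glyr1 and encodes a nucleosome-binding protein of transcribed chromatin, and the design asks which transcripts differ when it is depleted.

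Imprinted genes are transcribed mainly from the copy inherited from 1 parent. At Igf2 and H19, DNA methylation of the paternal control region keeps the insulator protein CTCF away, so that shared enhancers act on Igf2 on the paternal chromosome, while CTCF binds the unmethylated maternal region and H19 is transcribed there. In the neighbouring domain the paternally transcribed noncoding RNA Kcnq1ot1, which starts inside Kcnq1, silences Cdkn1c, Phlda2, Slc22a18 and Kcnq1 on the same chromosome, and in the placenta also Ascl2, Cd81 and Tssc4. Several of these genes set the growth of the fetus and of the placenta. The arrays report the summed transcript of both parental copies, so the values below say nothing about which copy was transcribed.

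Promoter windows of 4 member genes are printed to show the starts of genes that differed in their readings: Igf2, Ascl2 and Phlda2 rose several-fold, while the probe sets of Slc22a18, which lies next to Phlda2, went opposite ways. Each window holds 250 bases before and 50 bases after an annotated start, from RefSeq on the build GRCm38.p6, 5′ to 3′ on the strand of the gene, with every CG dinucleotide, the site of DNA methylation, in capitals. The table held windows for 6 of the 9 measured genes. Igf2 had 4 windows, and the one shown is the start nearest the 3′ end of the gene (chr7:142657447-142657746, minus strand). The others are Ascl2 (chr7:142969215-142969514, minus strand), Phlda2 (chr7:143502475-143502774, minus strand) and Slc22a18 (chr7:143473539-143473838, plus strand).
Igf2: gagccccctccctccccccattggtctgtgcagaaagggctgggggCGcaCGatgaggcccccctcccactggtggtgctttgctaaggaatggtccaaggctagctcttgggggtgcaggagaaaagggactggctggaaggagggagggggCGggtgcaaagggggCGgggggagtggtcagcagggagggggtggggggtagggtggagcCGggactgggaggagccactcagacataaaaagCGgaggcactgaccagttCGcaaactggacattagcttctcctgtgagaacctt
Ascl2: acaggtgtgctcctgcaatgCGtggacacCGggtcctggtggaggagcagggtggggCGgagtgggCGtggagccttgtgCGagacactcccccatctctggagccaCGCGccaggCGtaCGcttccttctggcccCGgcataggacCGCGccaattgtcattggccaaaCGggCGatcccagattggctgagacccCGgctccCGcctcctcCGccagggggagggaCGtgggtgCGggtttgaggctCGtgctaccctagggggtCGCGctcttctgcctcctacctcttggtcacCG
Phlda2: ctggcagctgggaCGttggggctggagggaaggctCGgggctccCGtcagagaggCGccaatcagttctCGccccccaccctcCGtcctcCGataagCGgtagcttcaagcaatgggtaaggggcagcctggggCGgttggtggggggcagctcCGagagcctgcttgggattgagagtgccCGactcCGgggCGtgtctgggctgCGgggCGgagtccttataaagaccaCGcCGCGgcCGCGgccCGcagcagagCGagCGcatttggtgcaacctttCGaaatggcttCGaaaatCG
Slc22a18: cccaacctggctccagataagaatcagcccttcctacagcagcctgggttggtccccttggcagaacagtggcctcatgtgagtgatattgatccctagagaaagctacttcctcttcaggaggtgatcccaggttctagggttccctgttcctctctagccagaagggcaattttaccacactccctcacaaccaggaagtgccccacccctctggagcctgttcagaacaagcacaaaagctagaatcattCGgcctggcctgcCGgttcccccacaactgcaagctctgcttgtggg

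The windows differed in their CG content. The Phlda2 window held 26 CG dinucleotides and that of Ascl2 held 23, as did those of Cd81 and Tssc4, against a median of 7 and an upper quartile of 20 over 32841 promoter windows of the same length. The Slc22a18 window held 2. The 4 Igf2 windows held 2, 14, 24 and 7 in the direction of transcription, so both CG-poor and CG-rich starts are annotated for this gene. Counting both strands, with overlapping matches allowed, the letters GGGCGG, a binding site of Sp1-type factors, stood 2 times in the Igf2 window shown, 1 time in that of Ascl2, 2 times in that of Phlda2 and nowhere in that of Slc22a18, and they occur in 35.7% of all windows. The letters CCCTC, the core of the CTCF site, stood 6 times in the Igf2 window shown, 1 time in that of Ascl2, and 2 times each in those of Phlda2 and Slc22a18, and they occur in 66.0% of all windows. These are matches of letters and not measured binding, and no relation between these sequences and the differences was tested.

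The targeted gene Glyr1 read 10.23 and 10.20 in Npac RNAi cells, against 11.30 and 11.32 in control RNAi cells, on the log2 scale of the deposited RMA values (log2 difference -1.09, SE 0.0458, limma adjusted p = 0.00101), 0.469 times the control level.

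Igf2, the growth factor ligand of the first domain, was 6.57-fold higher in Npac RNAi cells. Its brighter probe set read 13.53 and 13.51 on the Npac RNAi arrays, against 10.78 and 10.83 on the control RNAi arrays (log2 difference 2.72, SE 0.0476, limma adjusted p = 0.000704). All 4 values lay well above the median level of all genes (7.49), and the groups were far apart. The second Igf2 probe set was dim and read 5.93 and 5.86 in Npac RNAi, against 4.36 and 4.44 in control RNAi. It rose as well, by 1.5 on the log2 scale (SE 0.0658, limma adjusted p = 0.00135 over all probe sets), a smaller difference than that of the bright probe set.

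Ascl2, a basic helix-loop-helix transcription factor needed for the trophoblast of the placenta, was higher at each of its 3 probe sets. The brightest read 10.38 and 10.40 in Npac RNAi cells, against 7.66 and 7.75 in control RNAi cells, a 6.44-fold rise (log2 difference 2.69, SE 0.0551, limma adjusted p = 0.000704). Probe set 1422396_s_at read 9.24 and 9.23 in Npac RNAi, against 6.33 and 6.31 in control RNAi. Probe set 1432018_at read 9.51 and 9.69 in Npac RNAi, against 6.49 and 6.34 in control RNAi. The log2 differences of these 2 probe sets were 2.92 (SE 0.055) and 3.18 (SE 0.0945), each with a limma adjusted p of 0.0011 over all probe sets, so the 3 readings of Ascl2 lay between 2.69 and 3.18. They are repeated readings of 1 gene and not independent replicates.

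Cdkn1c, the cyclin-dependent kinase inhibitor p57, which restrains cell division in the embryo, was 4.91-fold higher. It read 11.03 and 11.01 in Npac RNAi cells, against 8.66 and 8.78 in control RNAi cells (log2 difference 2.30, SE 0.0611, limma adjusted p = 0.000704). Phlda2, which encodes a small pleckstrin homology protein that limits growth of the placenta, was 3.80-fold higher. It read 12.08 and 12.13 in Npac RNAi cells, against 10.14 and 10.23 in control RNAi cells (log2 difference 1.93, SE 0.0563, limma adjusted p = 0.000704). Each of these genes was measured by 1 probe set, and for both the arrays within a group differed by far less than the groups did.

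**Figure D1:**
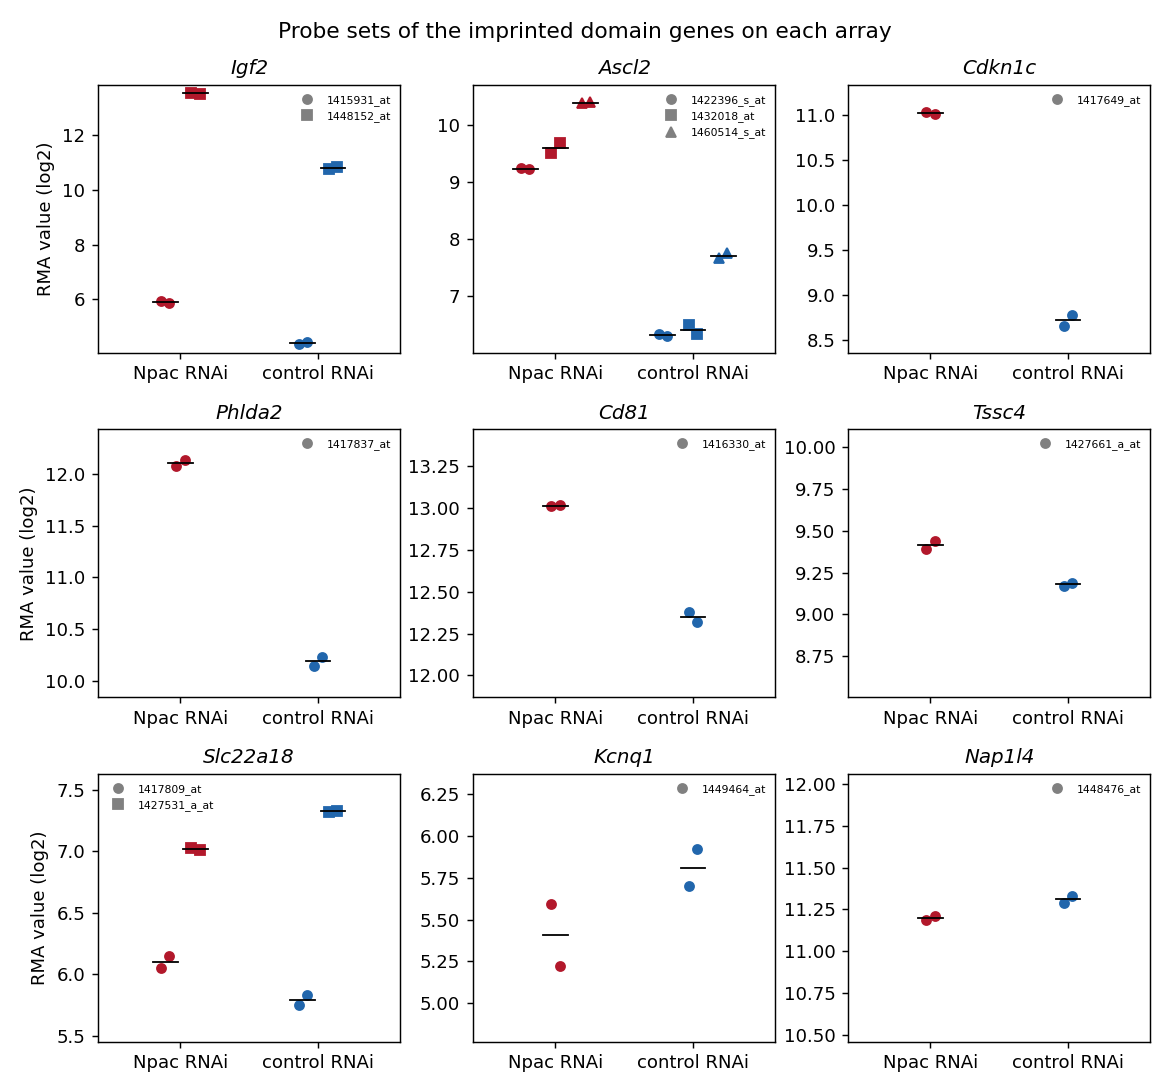
RMA values (log2) of the 13 probe sets on each array, in 1 panel per gene with Npac RNAi at the left and control RNAi at the right, where points are arrays, marker shapes are probe sets and bars are means of 2 arrays. Igf2, Ascl2, Cdkn1c and Phlda2 stood apart by 1.5 to 3.18 between the groups, Cd81 and Tssc4 by less, and the 2 probe sets of Slc22a18 moved in opposite directions.

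Cd81, a tetraspanin of the cell surface, was moderately higher. It read 13.01 and 13.02 in Npac RNAi cells, against 12.38 and 12.32 in control RNAi cells, a 1.58-fold rise (log2 difference 0.66, SE 0.0492, limma adjusted p = 0.00256). The call on Cd81 was lost when the arrays were scaled on their spike-in transcripts (log2 difference 0.12, limma adjusted p = 0.221).

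Tssc4, whose human counterpart helps to assemble a small nuclear ribonucleoprotein of the spliceosome, differed by little. It read 9.39 and 9.44 in Npac RNAi cells, against 9.17 and 9.19 in control RNAi cells (log2 difference 0.23, SE 0.0478, limma adjusted p = 0.0236). That call was lost without any 1 of the 4 arrays (limma adjusted p from 0.0697 to 0.115), with the replicate block (limma adjusted p = 0.0683) and after quantile normalization (log2 difference 0.08), median centring (log2 difference 0.09) or cyclic loess (log2 difference 0.14), and with spike-in scaling Tssc4 was called lower (log2 difference -0.31).

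Slc22a18, an organic cation transporter-like gene, gave no single direction. Its brighter probe set, 1427531_a_at, read 7.03 and 7.01 in Npac RNAi cells, against 7.32 and 7.33 in control RNAi cells (log2 difference -0.31, SE 0.0453, limma adjusted p = 0.0106). Its dimmer probe set, 1417809_at, read 6.05 and 6.15 in Npac RNAi cells, against 5.75 and 5.83 in control RNAi cells (log2 difference 0.31, SE 0.0685, limma adjusted p = 0.0354 over all probe sets). Both passed the test with opposite signs, and their mean did not differ (0.00, limma adjusted p = 0.992). The call on the brighter probe set was lost without control RNAi array 1 (limma adjusted p = 0.0526), without control RNAi array 2 (0.062) and without Npac RNAi array 2 (0.0627).

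Kcnq1, a potassium channel subunit of the heart and inner ear, was dim and did not pass the test. It read 5.59 and 5.22 in Npac RNAi cells, against 5.70 and 5.92 in control RNAi cells (log2 difference -0.41, SE 0.153, limma adjusted p = 0.101). The groups did not overlap, but the Npac RNAi arrays differed from each other by almost as much as the groups did. Without Npac RNAi array 1 the difference was -0.59 and passed the test (limma adjusted p = 0.0448), and it also passed after median centring (-0.55) and with spike-in scaling (-0.95). Nap1l4, a histone chaperone at the edge of the domain, read 11.19 and 11.21 in Npac RNAi cells, against 11.29 and 11.33 in control RNAi cells (log2 difference -0.11, SE 0.0471, limma adjusted p = 0.136). It passed the test with the trend option (limma adjusted p = 0.0174), when dimmer genes under the median level were left out (0.0433), after median centring (log2 difference -0.25) and with spike-in scaling (log2 difference -0.65).

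Over the 9 genes, 6 were called higher (Igf2, Ascl2, Cdkn1c, Phlda2, Cd81 and Tssc4), 1 was called lower (Slc22a18, by its brighter probe set) and 2 were not called. Of all 18193 genes 22.1% were called higher and 18.7% lower, so a call alone was common. Rises of at least 2-fold were found for 4 of the 9, against 2.92% of all genes, and no member fell by that much, against 0.258% of all genes. The members were chosen with earlier results of these data known, so these shares describe them and test nothing. The median log2 difference was 0.66 over the 9 genes and -0.04 over all genes. The groups did not overlap for any of the 9 genes, as for 74.2% of all genes. By probe set, 10 of the 13 were called higher, 1 lower and 2 not at all, against 28.2% called, 14.2% higher and 14% lower, over all probe sets.

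The 4 genes with the largest rises kept their call in every alternative setting, while each of the others lost or gained a call in some setting. Over 19 alternative settings the log2 difference ran from 2.11 to 2.74 for Igf2, from 2.15 to 3.18 for Ascl2, from 1.76 to 2.36 for Cdkn1c and from 1.39 to 1.97 for Phlda2, and each passed the test in every one of the 19. The lowest value was that with the mean of probe sets for Igf2 and that with spike-in scaling for the other 3. The arrays also carry control probe sets for bacterial poly-A transcripts, and scaling on these spike-ins shifted every difference by -0.54, and centring on the median of all genes shifted each by -0.14. With spike-in scaling 4 members were called higher and 4 lower, and after median centring 5 and 3. Over all genes, the 4020 higher and 3405 lower calls became 3248 and 4115 after quantile normalization, 2843 and 7175 after median centring and 906 and 14895 with spike-in scaling. The spike-in probe sets read 9.20 on average in Npac RNAi and 8.66 in control RNAi, and the part of this in the results was not tested.

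**Figure D2:**
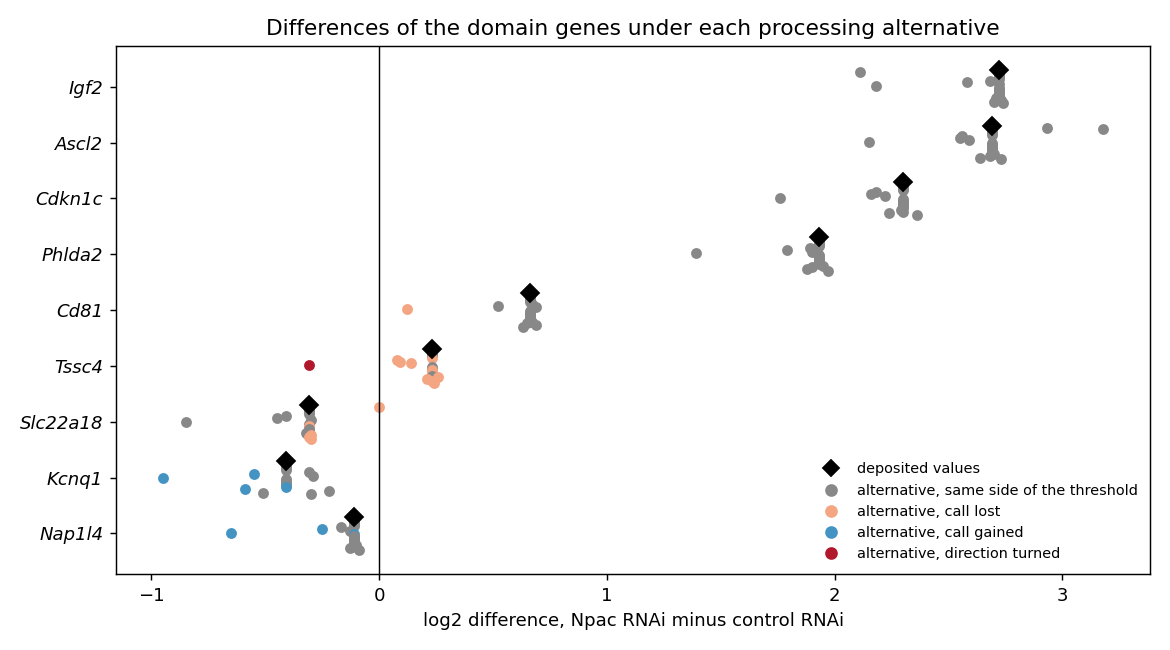
Log2 difference, Npac RNAi minus control RNAi, of the 9 genes (rows) for the deposited values (black diamonds) and under each alternative setting (circles, coloured by whether a gene kept its side of the adjusted p threshold, lost or gained a call, or turned direction). Igf2, Ascl2, Cdkn1c and Phlda2 stayed above 1.39 in each setting, while Tssc4 ran from -0.31 to 0.26 and Slc22a18 from -0.85 to 0.00.

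Read in the order of the genes on the chromosome, the 4 rises of at least 2-fold were separated by genes with smaller differences. Some of these were called higher, some were not called, and Slc22a18 was called lower by its brighter probe set. From the first to the last member 17 genes were measured, of which 8 were called higher, 1 lower and 8 not at all. Igf2 was followed by Igf2os, an antisense transcript that overlaps it (log2 difference 0.51, SE 0.215, limma adjusted p = 0.129), by the insulin gene Ins2 (-0.29, limma adjusted p = 0.068) and by the tyrosine hydroxylase gene Th (-0.17, limma adjusted p = 0.0761), none of them called and all named after their values were seen, as were Tspan32 and Trpm5 below. Ins2 passed the test in 6 of 18 alternatives, among them quantile normalization (limma adjusted p = 0.0419) and median centring (limma adjusted p = 0.0242), and Th passed it after median centring and with spike-in scaling. Igf2os passed it with the trend option (limma adjusted p = 0.044) and with the crossed block (limma adjusted p = 0.0424), and stood at -0.03 with spike-in scaling. The insulin probe set is of a kind that can bind related transcripts. Ascl2 came next, and beyond it the tetraspanin gene Tspan32 depended on the probe set: the brighter one read 7.19 and 7.14 in Npac RNAi, against 7.33 and 7.50 in control RNAi (-0.25, limma adjusted p = 0.0614), and the dimmer one rose by 0.54 (SE 0.0555, limma adjusted p = 0.00614 over all probe sets). R74862, an expressed sequence without a known role, was called higher (0.52, SE 0.131, limma adjusted p = 0.0394), but not without any 1 of the 4 arrays, and it stood at -0.02 with spike-in scaling.

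The Kcnq1 end of the region held the domain's noncoding RNA. Kcnq1ot1 read 9.41 and 9.41 at its brightest probe set in Npac RNAi cells, against 9.24 and 9.18 in control RNAi cells (log2 difference 0.20, SE 0.049, limma adjusted p = 0.0359). This small rise was lost without any 1 of the 4 arrays (limma adjusted p from 0.0802 to 0.143), after median centring (0.06) and with the replicate block (limma adjusted p = 0.0904), and it turned to -0.34 with spike-in scaling. Of the 6 probe sets named for Kcnq1ot1, 1458161_at rose by 0.41 (SE 0.0574, limma adjusted p = 0.0123 over all probe sets), and the other 5, which ran from -0.12 to 0.25, did not pass the test over all probe sets. Kcnq1ot1 lies within Kcnq1 on the opposite strand. Trpm5, a cation channel gene beside Kcnq1, was not called as deposited (-0.33, limma adjusted p = 0.0549), but passed the test in 7 of 18 alternatives, among them without control RNAi array 1 (-0.44, limma adjusted p = 0.0469). Thus Cdkn1c and Phlda2 rose by 2.30 and 1.93 on the log2 scale, while Slc22a18, which lies between them, read -0.31 and 0.31 at its probe sets, and Nap1l4, next to Phlda2, read -0.11.

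The 8 genes of the interval that are no members ran from -0.33 to 0.52, with 2 called higher and 0 lower. Since the members were chosen with earlier results of these data known, their contrast with these 8 genes is a description only. The 10 measured genes on each side gave 6 higher, 7 lower and 7 not called, and 1 of those 20 changed at least 2-fold. Of the interval's 17 genes 52.9% were called, of the 20 flanking genes 65.0% and of all genes 40.8%.

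**Figure D3:**
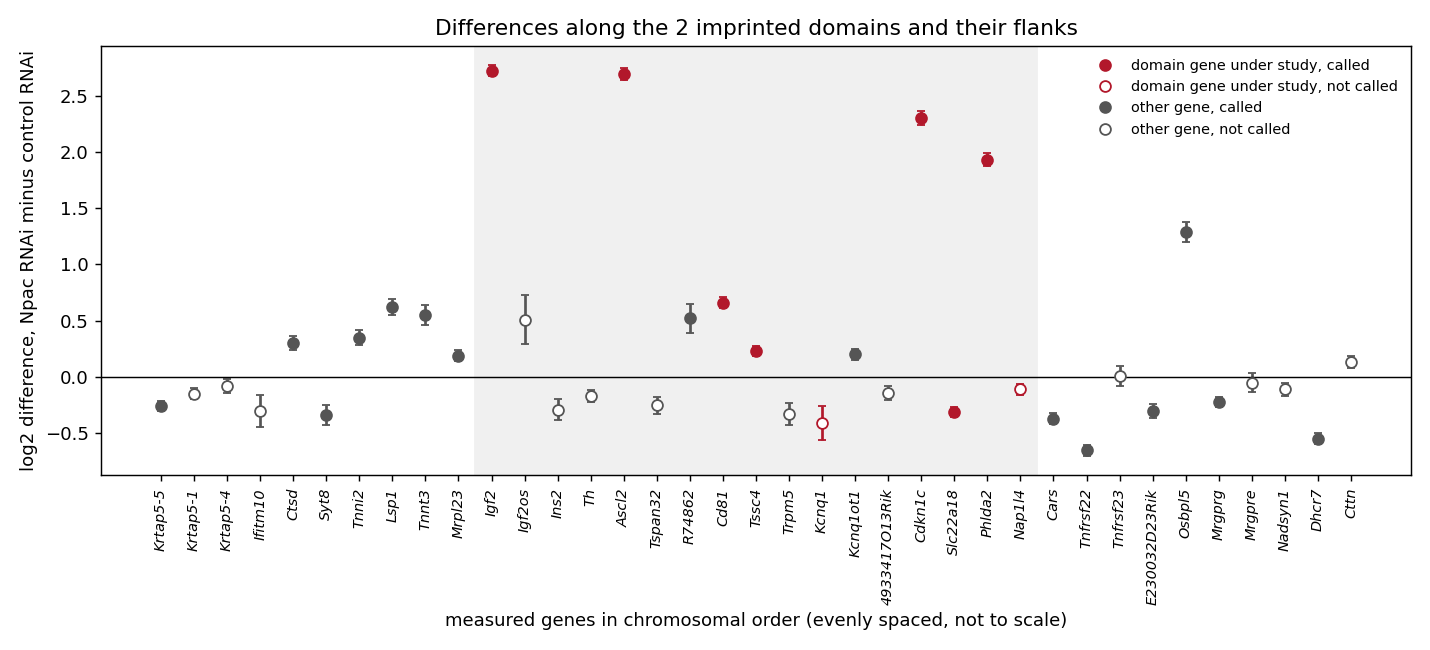
Log2 difference, Npac RNAi minus control RNAi, with bars of 1 SE, for 37 measured genes in chromosomal order, evenly spaced, where the shaded stretch runs from the first to the last measured member (red), and filled points passed the test. The 4 rises of 1.93 to 2.72 stand among genes between -0.41 and 0.66, and Osbpl5 beyond the interval is the only flanking gene past 1.

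Among a wider list of 25 genes from both domains and their borders, 22 were measured, of which 7 were higher and 6 lower (median -0.14). The counts were 5 and 6 after quantile normalization, 4 and 11 after median centring, and 1 and 16 with spike-in scaling. The genes named below are those that passed the test. The largest rise was that of Osbpl5, an oxysterol-binding protein gene that is imprinted in the mouse placenta. It read 6.54 and 6.76 in Npac RNAi cells, against 5.34 and 5.38 in control RNAi cells (log2 difference 1.29, SE 0.0875, limma adjusted p = 0.00215). The control RNAi values lay below the 25th percentile of all genes (5.51), and the call was lost without moderation (limma adjusted p = 0.0504). Lsp1, a leukocyte cytoskeletal gene (0.62), and the troponin gene Tnnt3 (0.55) were called higher too, but stood at 0.08 and 0.01 with spike-in scaling and were not called there. The Tnnt3 call was also lost without Npac RNAi array 1 (limma adjusted p = 0.0521) and without control RNAi array 2 (0.0505). The troponin gene Tnni2 (0.35), the lysosomal protease gene Ctsd (0.30), the mitochondrial ribosome gene Mrpl23 (0.19) and Kcnq1ot1 were called higher as deposited, but stood below 0 with spike-in scaling. The Mrpl23 call was lost without any 1 of the 4 arrays (limma adjusted p up to 0.158), that of Tnni2 without Npac RNAi array 2 or either control RNAi array (up to 0.0923), and that of Ctsd without control RNAi array 2 or either Npac RNAi array (up to 0.0999). The decoy receptor gene Tnfrsf22 (-0.65), the cholesterol synthesis enzyme gene Dhcr7 (-0.55), Cars, which encodes a cysteine transfer RNA synthetase (-0.37), Syt8 (-0.34), the keratin-associated gene Krtap5-5 (-0.26) and Mrgprg (-0.22) were called lower. The calls on Syt8, Krtap5-5 and Mrgprg were each lost without any 1 of the 4 arrays, with limma adjusted p up to 0.163, 0.0837 and 0.116, and that on Cars without control RNAi array 2 (limma adjusted p = 0.0528). Krtap5-5 belongs to a family of close copies, which makes its value uncertain.

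A list of IGF pathway genes held another IGF ligand, receptors, binding proteins and signalling genes, and not only those that Igf2 acts through. It went both ways: of 21 measured, 10 rose and 7 fell (median 0.00). The counts were 6 and 9 after median centring and 5 and 15 with spike-in scaling. The insulin receptor substrate gene Irs2 read 9.70 and 9.78 in Npac RNAi cells, against 8.08 and 8.09 in control RNAi cells (log2 difference 1.65, SE 0.0528). The binding protein gene Igfbp6 (1.38, SE 0.121) and the kinase gene Akt1 (1.02, SE 0.0651) rose as well, but the Igfbp6 call was lost without moderation (limma adjusted p = 0.0661). The regulatory subunit gene Pik3r1 fell by 0.95 (SE 0.0498), the binding protein gene Igfbp3 by 0.49 (SE 0.063), and Igf2r, the receptor that clears Igf2 and is itself imprinted, by 0.45 (SE 0.0561). The Igfbp3 call was lost without control RNAi array 2 (limma adjusted p = 0.0544), and the calls on both Igfbp3 and Igf2r were lost without moderation (limma adjusted p = 0.0712 and 0.0611). The signalling receptor gene Igf1r, named after its value was seen, did not pass the test (0.00, limma adjusted p = 0.965).

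Among factors that maintain imprints or act at insulators, 5 of 23 rose and 10 fell (median -0.17), and with spike-in scaling 0 and 18. Dppa3, which protects imprints in the early embryo (0.65, SE 0.0556), rose, as did the cohesin subunit Stag2 (0.52, SE 0.0576) and the DNA methyltransferase Dnmt3b (0.43, SE 0.0467), but with spike-in scaling Dppa3 was not called (0.11) and Stag2 and Dnmt3b stood at -0.02 and -0.11. The DNA demethylase gene Tet1 fell by 0.79 (SE 0.0559), the methyltransferase gene Dnmt3a by 0.56 (SE 0.0458) and Trim28, a corepressor that protects imprints, by 0.47 (SE 0.0475). For Dnmt3a the difference was -0.05 and not called when its probe sets were averaged. Ctcf, the insulator factor of the Igf2 domain, and the maintenance methyltransferase gene Dnmt1, both named after their values were seen, did not pass the test. The log2 difference was -0.10 for Ctcf (limma adjusted p = 0.183) and -0.07 for Dnmt1 (limma adjusted p = 0.366). Uhrf1 (-0.57, limma adjusted p = 0.0048) and Zfp57 (-0.42, limma adjusted p = 0.00719), also named after their values were seen, were among the 10 that fell.

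Of 44 measured imprinted genes at other loci, 16 were higher and 7 lower (median 0.03), so the rises of the chromosome 7 genes were not matched by a shift of the list's median. After median centring 13 were higher and 13 lower, and with spike-in scaling 7 and 29. Those higher included Peg3 (1.76), Sfmbt2 (1.74) and Peg10 (1.41), and those lower Rian (-2.55), Plagl1 (-1.10) and Mirg (-0.84).

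Markers of trophoblast, fibroblast and endoderm cells were read beside these genes, several of which set the growth of the fetus and of the placenta. Of 24 measured trophoblast markers 20 were higher and 0 lower (median 1.25), among them Rhox6 (2.94), Rhox9 (2.59) and Plac1 (2.49), and with spike-in scaling 18 and 3. The marker lists too were chosen with earlier results of these data known. Rhox6 and Rhox9 belong to a multigene family. Summed over the list on a linear scale, in units of 1000 array units, the level was 57.4 and 58.0 in Npac RNAi and 14.1 in each control RNAi array. The late placental markers Tpbpa (4.25 and 4.42 in Npac RNAi, 4.54 and 4.63 in control RNAi) and Psg17 (3.78 and 3.80 in Npac RNAi, 3.98 and 3.91 in control RNAi), named after their values were seen, stayed below the 25th percentile of all genes (5.51) in both groups. Elf5 (0.42, limma adjusted p = 0.0902) and Esx1 (0.04, limma adjusted p = 0.815), named in the same way, did not pass the test either. Esx1 was not dim, at 7.66 and 7.40 in Npac RNAi, against 7.56 and 7.43 in control RNAi. The part of the trophoblast markers in the rise of the domain genes was not tested, and in these bulk samples a change in the share of a cell type cannot be told apart from a change in RNA per cell.

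Fibroblast markers gave 7 higher and 5 lower of 24 (median 0.06), with summed levels of 20.8 and 20.6 in Npac RNAi and 14.5 in each control RNAi array, and 9 of the 24 below the 25th percentile. Tagln (2.38), Sparc (0.92) and Col5a1 (1.18) rose, and Fn1 (-0.40), Prrx1 (-0.29) and Pdgfra (-0.49) were called lower. The Prrx1 call was lost without any 1 of the 4 arrays (limma adjusted p up to 0.0639) and when its probe sets were averaged (-0.10), and the Pdgfra call without Npac RNAi array 2 (limma adjusted p = 0.0764) and without control RNAi array 1 (0.0512). The defining fibroblast collagen Col1a1, named after its value was seen, read 5.54 and 5.54 in Npac RNAi, against 5.54 and 5.65 in control RNAi. Primitive and visceral endoderm markers gave 7 higher and 4 lower of 19 (median 0.02), with summed levels of 29.7 and 30.2 in Npac RNAi and 18.8 in each control RNAi array. Linear sums weigh bright genes most, and Sparc was the brightest measured gene of both the fibroblast and the endoderm list. It read 13.43 and 13.38 in Npac RNAi, against 12.46 and 12.50 in control RNAi. Col4a2 (1.2), Col4a1 (0.98) and Sparc rose, and Amn (-0.74), Pdgfra and Cubn (-0.30) were called lower, of which the Cubn call was lost without any 1 of the 4 arrays (limma adjusted p up to 0.0829). The endoderm regulator Gata6, named after its value was seen, read 9.23 and 9.23 in Npac RNAi, against 9.22 and 9.23 in control RNAi. After median centring the endoderm list gave 7 higher and 7 lower, after quantile normalization the fibroblast list 8 and 2, and with spike-in scaling the fibroblast list 6 and 16 and the endoderm list 4 and 12. The part of these markers in the results was not tested.

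The embryonic stem cell label was read against 18 markers, all measured and none below the 25th percentile in level. Of these 14 were lower and 1 higher (median -0.34), with summed levels of 88.3 and 89.5 in Npac RNAi and 111 in each control RNAi array. Nr0b1 (-1.43), Tdgf1 (-1.23) and Pou5f1 (-1.17) were among those that fell, and Tbx3 rose (0.39), though it stood at -0.15 with spike-in scaling.

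**Figure D4:**
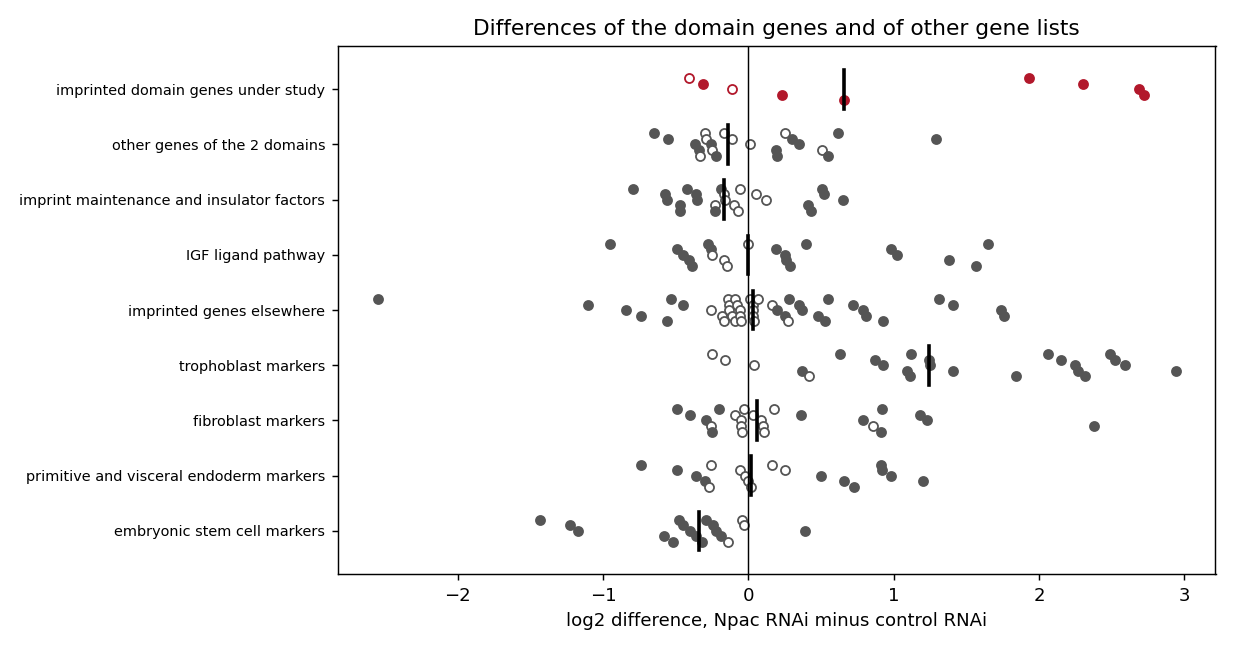
Log2 difference, Npac RNAi minus control RNAi, of each measured gene (points, filled where the adjusted p was under 0.05, spread vertically for legibility) in the imprinted domain genes (red) and 8 other gene lists, with a bar at each median. The domain genes fall into 4 near 2 and above and 5 between -0.41 and 0.66, the trophoblast markers lie mostly above 0, and the embryonic stem cell markers mostly below.

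Likeness between genes was read from the 4 array values, each centred on the gene's mean. Members, predicted genes and numbered clones were left out of this search. Closest to Igf2 among the other genes were Rhox9 (Euclidean distance 0.127), the interferon-inducible gene Gbp2 (0.134, log2 difference 2.60) and the ferritin-like gene Fthl17a (0.138, log2 difference 2.64). Those closest to Cdkn1c were the trophoblast regulator Gata3 (0.0865, log2 difference 2.32), the tight junction gene Cldn4 (0.0871, log2 difference 2.36) and the keratin gene Krt19 (0.0935, log2 difference 2.24). With 4 arrays in 2 groups, likeness amounts to a difference of the same size between the groups.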

How the data were processed

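RNA from 4 samples was measured on single-channel Affymetrix arrays. The deposited values are log2 RMA values, 1 per probe set and array, with RMA named per the submitters' processing notes without a version. The log base is not stated and was inferred from the values, which ran from 2.78 to 15.05 outside the control probe sets. Since RMA equalises the arrays, a difference is measured against most other transcripts. The number of arrays, not a read depth, limits the precision.

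Of 45101 probe sets, 64 controls were left out, and 34945 had 1 symbol, 932 had several and 9160 none in the annotation used. For 34741 probe sets the symbol was brought up to date in RefSeq (GRCm38.p6) by Entrez identifier. Where a gene had several probe sets, the one with the highest mean over the 4 arrays stood for it. The comparison used lmFit and eBayes of limma 3.58.1 (R 4.3.3), with Benjamini-Hochberg adjustment over 18193 genes, and in a second fit over 45037 probe sets. A call is an adjusted p under 0.05, and SE is limma's moderated one. The fit had 2 residual and 2.28 prior degrees of freedom. The procedure was tested on simulated data.

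The members, the gene lists and the naming rule were chosen with earlier results of these data known. Named were Glyr1, the members, called genes of the wider domain list and, per other list, up to 3 higher and 3 lower calls with the smallest adjusted p. For Igf2 and Cdkn1c the 3 genes nearest in centred profile were named too, with members, predicted genes and numbered clones left out. Alternatives covered the choice of probe set, moderation, scaling, filters, thresholds, the replicate block and each array left out. The crossed block was added after seeing the data. With 1 array left out, the lone array is assumed to vary like the other group.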

Additional observations from a re-analysis of the deposited data

Results flagged for a closer look

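Probe set 1448194_a_at carries the symbols of both H19 and the microRNA gene Mir675 in the annotation, so no gene was named from it and it enters no comparison above. It read 12.52 and 12.51 on the Npac RNAi arrays, against 10.17 and 9.98 on the control RNAi arrays (log2 difference 2.44, SE 0.0811, limma adjusted p = 0.0011 over all probe sets). It is given here as a signal outside the genes measured, higher in Npac RNAi than in control RNAi.

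The 24 poly-A spike-in probe sets, which belong to no mouse gene, read 9.20 on average in Npac RNAi and 8.66 in control RNAi. The log2 difference averaged 0.54, with a range of 0.21 to 0.81, and was above 0 for each of the 24, which read few added transcripts many times over.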

How the results depend on the processing

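Igf2, Ascl2, Cdkn1c, Phlda2 and Glyr1 kept their direction and their call under all 19 alternatives. The 6 members called higher as deposited numbered 4 to 6 over the alternatives. The other counts moved by more than 1.5 times in some settings, given here as all genes called, then those higher and those lower, against 7425, 4020 and 3405 as deposited. They were 2551, 1557 and 994 without moderation, 15801, 906 and 14895 with spike-in scaling, 3129, 2115 and 1014 at an adjusted p under 0.01, 2108, 1579 and 529 with a minimum fold of 1.2, and 4375, 2710 and 1665 with the replicate block. Median centring gave 7175 lower. With each array left out in turn they ran from 3088 to 4731, from 2100 to 2761 and from 988 to 1970, which fewer samples lower by construction. Of members, 1 was lower as deposited, 0 with the mean of probe sets, at an adjusted p under 0.01 and with a minimum fold, 2 with trend and with the crossed block, 3 after median centring, 4 with spike-in scaling and 0 to 2 with an array left out. Along the domains 8 genes were higher as deposited, 5 without moderation, after quantile normalization or median centring, at an adjusted p under 0.01, with a minimum fold and with any 1 array left out, and 4 with spike-in scaling. There 1 was lower as deposited, 0 with the mean of probe sets, at an adjusted p under 0.01 and with a minimum fold, 2 with the probe set of largest interquartile range, 3 after quantile normalization, 4 with trend, among genes at or above the 25th percentile and with the crossed block, 8 after median centring, 10 with spike-in scaling and 0 to 2 with an array left out. Spike-in scaling turned Tssc4 (-0.31), R74862 (-0.02), Kcnq1ot1 (-0.34), Tnni2 (-0.19), Ctsd (-0.24), Mrpl23 (-0.35), Dnmt3b (-0.11), Stag2 (-0.02) and Tbx3 (-0.15), through its constant shift, and Tspan32 was 0.54 by its other probe set. The cause of the other changes was not tested.

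The labels do not say whether same-numbered arrays share a culture or day, and their deviations from the group means correlated at -0.17 across 18193 genes, so the pairing was not used. With the replicate block 5 members were higher and 1 lower, and with the crossed block, which pairs array 1 of a group with array 2 of the other, 6 and 2, with 7033 genes called in all. No detection calls were used here, so signal over background was not assessed for dim probe sets such as that of Kcnq1.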
